A study of Homo sapiens with 9 samples.

Results

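Fibrinogen, the soluble plasma protein that thrombin turns into fibrin, is built from α, β and γ chains, encoded by FGA, FGB and FGG. Hepatocytes make all the chains, assemble them into a dimer in the endoplasmic reticulum and secrete it, and raise its production in the acute phase response through interleukin 6 and glucocorticoids. FGL1, fibrinogen-like 1 or hepassocin, is a separate secreted liver protein that carries a fibrinogen-type C-terminal domain. It is known as a ligand of the inhibitory receptor LAG3 on T cells. These 4 genes were picked by name, out of 27800 gene symbols, with their levels in these libraries already known, so their own differences are described here without a test, and tests are kept for other genes.

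The cells were Huh7, an established human hepatocellular carcinoma line, grown in medium with fetal bovine serum. Of 9 total RNA libraries, 3 came from cells given vehicle, which the labels do not specify further, 3 from cells given 5 uM FIDAS-5 for 48 h and 3 from cells given 0.5 uM JQ1 for 48 h. FIDAS-5 inhibits MAT2A, the enzyme that makes the methyl donor S-adenosylmethionine outside the normal liver, and JQ1 inhibits the bromodomains of the BET proteins, readers of acetylated histones that promote transcription. All groups are 1 cell line, each compound was given at 1 dose for 1 time, the labels give no time for vehicle, and in such bulk libraries fewer cells expressing a gene and less RNA per cell cannot be told apart. Levels are in TPM, Salmon's length-scaled unit of transcript abundance in which each library has the same total; they are scaled by transcript length, so levels of different genes can be set beside each other. TPM keeps no read counts, so depth and counting error are unknown. The labels do not state that the replicates were separate cultures, and the p-values below then measure only the spread between libraries, which may be technical.

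FGA, FGB and FGG lie side by side on chromosome 4 of GRCh38, with FGB on the forward strand (154562980 to 154572807) and FGA (154583126 to 154590742) and FGG (154604136 to 154612656) on the reverse strand; all are protein-coding, and no other protein-coding gene overlaps the interval. The 250 bases before the start of each fibrinogen gene (RefSeq, GRCh38.p14) are shown because these 3 genes were high together in the JQ1 libraries. FGB has 2 listed starts, and the outer one was used. Capitals mark matches, on either strand, to the letters of sites described for factors of liver and acute phase promoters: TTGCNNAA (C/EBP), TTCNNNGAA (STAT) and CTGGGAA (an interleukin 6 response element). The windows are chr4:154590743-154590992 (reverse strand), chr4:154562730-154562979 (forward strand) and chr4:154612657-154612906 (reverse strand).
FGA: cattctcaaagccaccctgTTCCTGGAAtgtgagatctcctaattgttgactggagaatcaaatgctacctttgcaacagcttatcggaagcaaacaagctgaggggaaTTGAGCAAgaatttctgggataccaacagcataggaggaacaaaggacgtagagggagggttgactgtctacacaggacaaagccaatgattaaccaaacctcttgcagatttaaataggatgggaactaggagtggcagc
FGB: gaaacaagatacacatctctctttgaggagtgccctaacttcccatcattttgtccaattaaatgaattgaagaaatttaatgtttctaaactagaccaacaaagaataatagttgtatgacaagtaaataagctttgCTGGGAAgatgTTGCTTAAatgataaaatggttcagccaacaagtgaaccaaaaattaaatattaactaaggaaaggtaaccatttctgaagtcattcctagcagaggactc
FGG: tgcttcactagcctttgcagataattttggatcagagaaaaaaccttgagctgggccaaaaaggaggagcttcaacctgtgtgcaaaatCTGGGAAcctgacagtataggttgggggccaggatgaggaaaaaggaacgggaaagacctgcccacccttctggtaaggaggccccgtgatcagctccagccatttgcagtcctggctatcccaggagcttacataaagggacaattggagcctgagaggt

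Positions are counted back from -1, the base just before the start. TTGCNNAA was matched in FGA (-141 to -134) and FGB (-101 to -94), and is present in 9.05% of all 35116 windows of this length in the table. The interleukin 6 letters CTGGGAA were matched in FGB (-112 to -106) and FGG (-161 to -155), against 9.15%, and TTCNNNGAA in FGA alone (-231 to -223), against 6.57%. No motif in capitals was present in all 3 windows. CANNTG, the E box, is in all 3 and in 61.8% of all windows, and is not capitalised. The response element variant CTGGAAA, the USF E box CACGTG and the TATA letters TATAAA were searched without a match. Those letters are in 6.24%, 6.34% and 10.7% of windows. CACGTG is a form of CANNTG. The windows of FGA, FGB and FGG hold 45.2, 33.2 and 50.8% G and C, against a median of 58.0% over all windows, and a match is a description of letters only.

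With JQ1 the 3 fibrinogen genes stood about equally far above vehicle, and FGL1 stood below it. FGA, the α chain, measured 152, 247 and 242 TPM in the 3 vehicle libraries, against 2381, 2313 and 1874 TPM in those given JQ1. The lowest JQ1 library was thus far above the highest vehicle library, and the means were 214 ± 53.7 and 2189 ± 275 TPM (SD, n = 3 each), a ratio of 10.2 and a log2 fold change of 3.38 (SE 0.21). FGB, the β chain, measured 80.7, 107 and 102 TPM after vehicle, against 1169, 1083 and 631 TPM after JQ1. Its groups were as clearly apart, though JQ1 replicate 3 was well under the other JQ1 libraries, and the log2 fold change was 3.26 (SE 0.26). FGG, the γ chain, measured 176, 239 and 204 TPM after vehicle, against 2519, 2299 and 1289 TPM after JQ1, a log2 fold change of 3.25 (SE 0.28), again with JQ1 replicate 3 lowest. Among the 13573 genes tested, ordered by log2 fold change from the top, FGA, FGB and FGG held places 5, 7 and 8.

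FGL1 went the other way. Vehicle libraries held 4.37, 5.72 and 5.13 TPM of it and JQ1 libraries 3.66, 3.14 and 1.84 TPM, so that every JQ1 library lay under the lowest vehicle library, by a small margin for replicate 1. Its means were 5.07 ± 0.678 and 2.88 ± 0.934 TPM, a log2 fold change of -0.67 (SE 0.26), and at this level the pseudocount of 1 makes the fold change smaller than the ratio of the means. All 4 genes therefore separated JQ1 from vehicle, 3 higher and 1 lower, where 24.5% of all tested genes separated with JQ1 higher and 26.2% with JQ1 lower, and 38.5% passed an adjusted p under 0.05 in either direction. The members were chosen on this contrast, so nothing follows from that count.

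**Figure D1:**
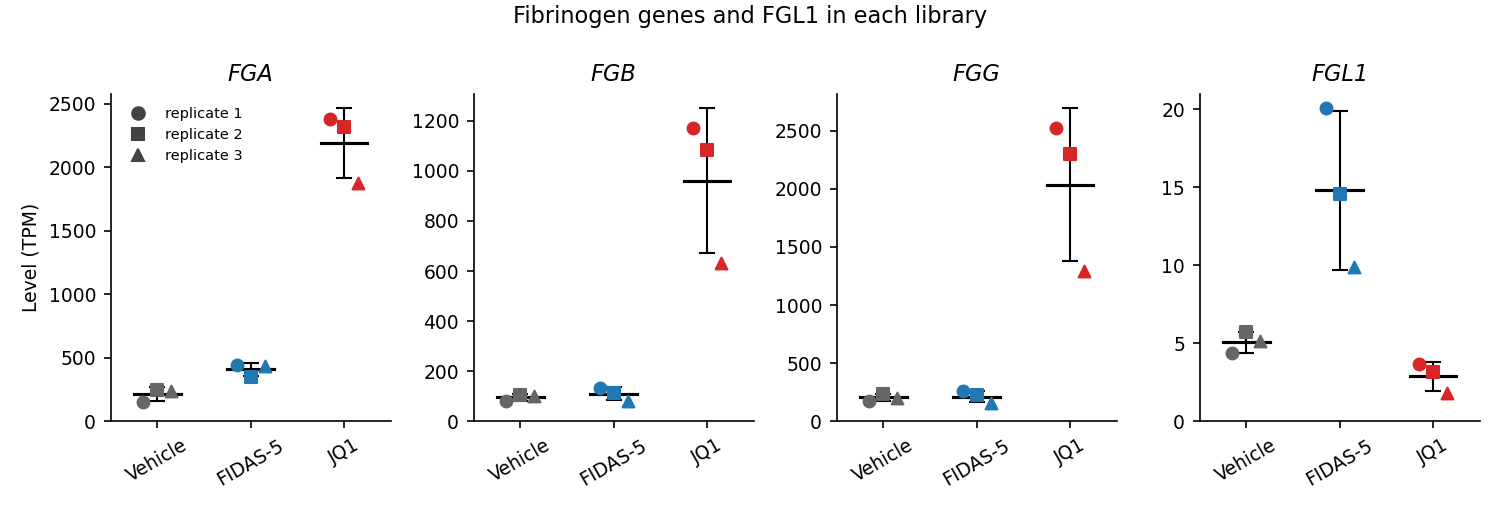
Level in TPM (vertical axis, linear from 0, a separate scale for each gene) of FGA, FGB, FGG and FGL1 in vehicle, FIDAS-5 and JQ1 libraries; each point is 1 library with its replicate number as the symbol, and lines show the mean and SD (n = 3). FGA, FGB and FGG are highest with JQ1, FGL1 is highest with FIDAS-5 and lowest with JQ1, and replicate 3 is the lowest JQ1 library in every panel.

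FIDAS-5 gave a different picture, in which FGA and FGL1 were above vehicle in every library and FGB and FGG overlapped it. FGA was at 444, 348 and 437 TPM with FIDAS-5, all above the highest vehicle library, with a mean of 409 ± 53.5 TPM and a log2 fold change of 0.96 (SE 0.21). FGL1 was at 20.1, 14.6 and 9.88 TPM, again all above vehicle, with a mean of 14.8 ± 5.09 TPM, 2.92 times the vehicle mean, and a log2 fold change of 1.34 (SE 0.26). These 2 of 4 genes separated with FIDAS-5 higher, as did 20.9% of all tested genes, while 18.4% separated with FIDAS-5 lower and 20.2% passed an adjusted p under 0.05 in either direction. FGB was at 133, 114 and 83.3 TPM and FGG at 258, 223 and 159 TPM, values that overlap those of vehicle, with log2 fold changes of 0.17 (SE 0.26) and 0.03 (SE 0.28). That of FGG was negative without vehicle replicate 1 or without FIDAS-5 replicate 1 or 2 (-0.08, -0.12 and -0.02), so no direction can be given for it. FGB was at 0.02 without FIDAS-5 replicate 1 and 0.36 without FIDAS-5 replicate 3. Both comparisons use the same vehicle libraries.

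The treatments can be ordered for each gene. For FGA the order was vehicle, FIDAS-5 and JQ1, with no overlap between neighbouring groups, and the difference of JQ1 from FIDAS-5 was 2.42 on the log2 scale (SE 0.21). For FGB and FGG vehicle and FIDAS-5 could not be ordered, and JQ1 lay above both, by 3.09 (SE 0.26) and 3.22 (SE 0.28) over FIDAS-5. For FGL1 the order was JQ1, vehicle and FIDAS-5, again without overlap, with JQ1 under FIDAS-5 by -2.01 (SE 0.26) on the log2 scale. FGL1 is thus not a copy of the fibrinogen pattern: over the 9 libraries its log2(TPM + 1) had a Pearson correlation of -0.486 with FGA, -0.608 with FGB and -0.629 with FGG, given as a description of 9 libraries in 3 groups.

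In vehicle-treated cells FGA and FGG overlapped in level, FGB lay below both, and FGL1 was far below all 3. Ranked among 19066 protein-coding symbols in each library, FGA held places 193 to 298 after vehicle, 85 to 121 after FIDAS-5 and 8 or 9 after JQ1. FGG moved from places 216 to 258 in vehicle to 7 to 17 with JQ1, and FGB from 456 to 614 to 23 to 50, so that with JQ1 all 3 were among the most abundant messenger RNAs of these cells. Together they made up 0.166% ± 0.0271 of protein-coding TPM after vehicle, 0.244% ± 0.00688 after FIDAS-5 and 1.62% ± 0.218 after JQ1 (SD, n = 3 each). FGL1 ranked at 6293 to 7435 after vehicle, 3022 to 4351 after FIDAS-5 and 8362 to 9103 after JQ1.

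Since the secreted molecule holds equal numbers of each chain, the proportions of the chain transcripts were compared in each library. FGA was 41.0% ± 3.55 of the sum of the 3 transcripts in vehicle and 43.1% ± 5.52 with JQ1, FGG 40.2% ± 2.92 and 38.6% ± 4.06, and FGB 18.8% ± 0.877 and 18.3% ± 1.46 (SD, n = 3 each). The proportions of the JQ1 and vehicle libraries thus overlapped for FGA, FGB and FGG, while the summed level went from 516 ± 96.5 to 5185 ± 1220.1 TPM. With FIDAS-5 the balance was different: FGA was 53.1, 50.8 and 64.3% of the sum, above every vehicle library (37.2, 41.7 and 44.2%), and FGG was 30.9, 32.6 and 23.4%, below every vehicle library (43.0, 40.3 and 37.2%). FGB was between 12.3 and 16.7%, against 18.1 to 19.8% in vehicle. The ratio of FGB to FGG varied less than that of FGA to FGG, though it was higher in every FIDAS-5 library than in any vehicle or JQ1 library, at -1.09 ± 0.08 on the log2 scale after vehicle, -0.95 ± 0.02 after FIDAS-5 and -1.07 ± 0.04 after JQ1, whereas FGA to FGG was 0.03 ± 0.23, 0.96 ± 0.44 and 0.16 ± 0.34. FGA is therefore the chain that departs most from the others with FIDAS-5, and its excess was greatest in FIDAS-5 replicate 3. Among the JQ1 libraries its share was highest in replicate 3 (49.4%), near that of FIDAS-5 replicate 2 (50.8%). In both these replicates 3 departures rose with GC content, as described below, and the part of that trend in the chain proportions was not tested. FGB was the least abundant chain transcript in all 9 libraries.

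**Figure D2:**
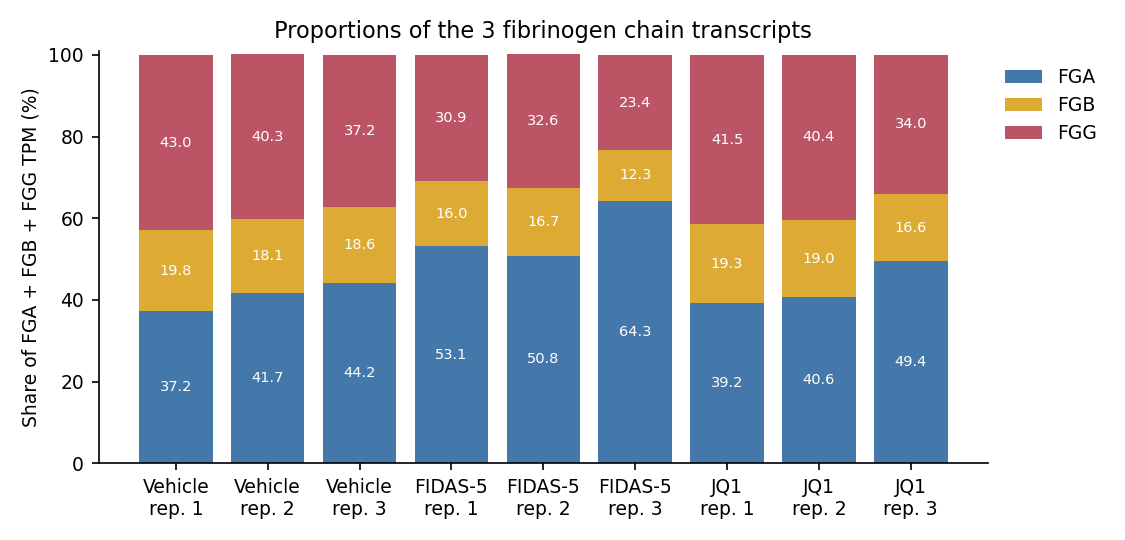
Share of each chain transcript in the summed TPM of FGA, FGB and FGG (vertical axis, percent) for each of the 9 libraries, with the share printed in the bar. FGA holds 50.8 to 64.3% in the FIDAS-5 libraries, against 37.2 to 44.2% in vehicle and 39.2 to 49.4% with JQ1.

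Much of the spread within groups was shared by FGB, FGG and FGL1 and less by FGA. In FIDAS-5 replicate 3 the departures from the group mean were -0.37 for FGB, -0.39 for FGG and -0.49 for FGL1 on the log2(TPM + 1) scale, but 0.10 for FGA. In JQ1 replicate 3 they were -0.56, -0.60 and -0.42, and -0.22 for FGA. Over all 9 libraries the departures of FGB and FGG had a Pearson correlation of 0.99, those of FGB and FGL1 of 0.95, and those of FGA and FGB of 0.55, as a description of 9 values with 6 degrees of freedom that share library and scaling. Across the whole table the departures of the same 2 libraries rose with the GC content of transcripts (Spearman correlations across 13042 genes of 0.55 and 0.64). Those of the replicates 1 of the same treatments fell with it about as strongly (-0.51 and -0.65). Replicates 2 of FIDAS-5 and JQ1 had -0.21 and -0.34, and vehicle replicates 1, 2 and 3 had 0.38, -0.27 and -0.14. The median GC content of annotated transcripts was 44.07% for FGA, 43.18% for FGB, 39.04% for FGG and 41.14% for FGL1, all under the 49.56% of all symbols with a transcript, and the part of GC content in these departures was not tested. With FIDAS-5 replicate 3 and JQ1 replicate 3 both left out, the JQ1 log2 fold changes were 3.54 for FGB and 3.55 for FGG, and -0.46 for FGL1.

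**Figure D3:**
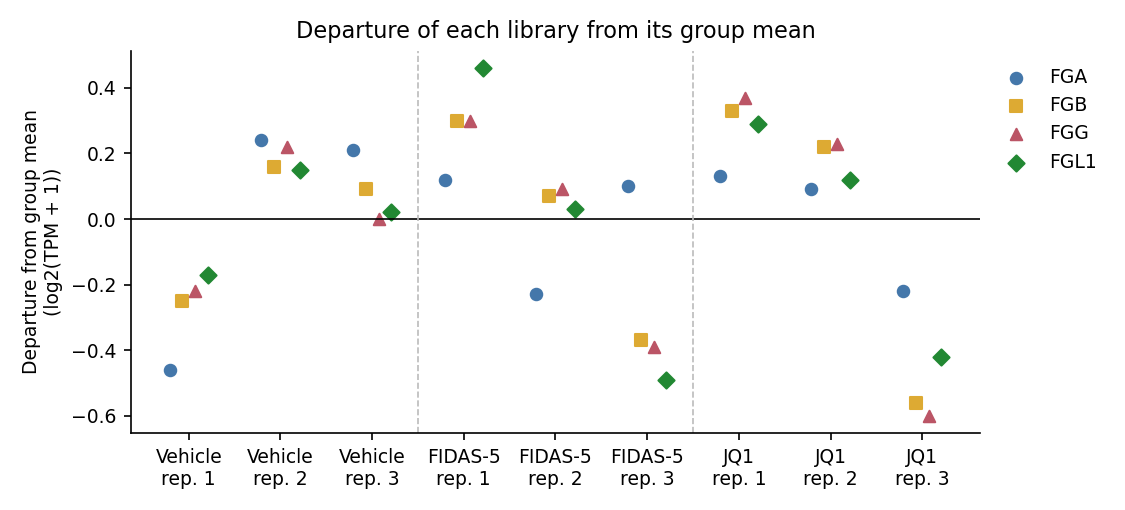
Departure of FGA, FGB, FGG and FGL1 from the mean of their own group (vertical axis, log2(TPM + 1)) in each of the 9 libraries. FGB, FGG and FGL1 lie close to each other in each library, between -0.60 and 0.46, while FGA lies above all 3 of them in 4 libraries (vehicle replicates 2 and 3, FIDAS-5 replicate 3 and JQ1 replicate 3) and below all 3 in the other 5.

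The cells were checked against marker genes. All 10 hepatocyte markers were present, summing to 4952 to 5768 TPM after vehicle, 3847 to 5934 after FIDAS-5 and 9825 to 14308 after JQ1. The markers did not move together with JQ1. By limma (adjusted p under 0.05) 6 rose (APOA1, GPC3, APOB, SERPINA1, ALB and HNF4A), and AFP was not called. The 3 that fell were APOH, TTR and AHSG (-2.91, -1.73 and -1.33 on the log2 scale). Of all tested genes 19.0% rose and 19.4% fell. Of the platelet and megakaryocyte markers PF4 and PPBP were at 0 in every library and ITGA2B under 1 TPM. GP1BA, the fourth, made up most of sums of 0.505 to 0.997 TPM after vehicle, 1.14 to 1.21 after FIDAS-5 and 1.22 to 1.34 after JQ1. Its vehicle libraries were all under 1 TPM (0.880, 0.466 and 0.720), and its log2 fold change with JQ1 was 0.43. It passed the filter through the treated libraries alone, so no test is given. The part of these sums in the FGA levels, which have the same order of groups, was not tested. Of 5 leukocyte markers PTPRC and CD3E were under 1 TPM throughout, while the summed level, most of it LYZ, was 109 to 132 TPM after vehicle, 238 to 293 after FIDAS-5 and 14.1 to 20.0 after JQ1. Of 4 endothelial markers CDH5 was at 0 and VWF and KDR under 1 TPM, and the sum, nearly all PECAM1, was 6.58 to 9.87, 15.4 to 16.6 and 1.35 to 1.64 TPM. These sums had the order of FGL1 across the groups, and their part in its level was not tested. The sums of 4 fibroblast markers were 1.07 to 2.10, 1.60 to 2.03 and 1.55 to 1.87 TPM, and those of 4 cholangiocyte markers 26.0 to 31.5, 22.7 to 37.5 and 31.9 to 48.4 TPM, with KRT7 at 0.

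The fibrinogen genes were then set beside other plasma proteins of the acute phase, of which 19 of 26 were tested. With JQ1 5 of them rose and 11 fell by limma at an adjusted p under 0.05, the median of their log2 fold changes being -1.23, where 19.0% of all tested genes rose, 19.4% fell and the median was -0.01. ORM1 and ORM2, the near-identical acid glycoproteins whose reads may be split between them, fell by 3.80 and 3.06 on the log2 scale (adjusted p = 2.99e-06 for both). C4BPA, a complement regulator, changed by -2.42 (adjusted p = 1.55e-05), CP, the copper carrier ceruloplasmin, by -1.76, SERPINA3, antichymotrypsin, by -1.54, HPX, the haem carrier, by -1.44 and HP, haptoglobin, by -0.86. The 5 that rose were SERPINA1, α1-antitrypsin, from 983 ± 122 TPM to 3101 ± 96.0 (1.66 on the log2 scale, adjusted p = 3.47e-05), ALB, albumin, from 1243 ± 323 TPM to 3648 ± 1401 (adjusted p = 0.0106), A2M (0.82), CFB (0.59) and TF (0.54). ALB and TF are lowered in an acute phase response in the liver, as is TTR, which fell (-1.73). CRP, SAA1, LBP, HAMP and LCN2, strong acute phase genes in the liver, were under 1 TPM in every library and were not tested. No setting tried moved the counts of 5 and 11 by over 1.5 times. The list was chosen with some of these values known.

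With FIDAS-5 3 of the 19 acute phase genes rose and 5 fell, with a median of -0.08 (6 rose with the GC trend removed), where 12.6% of all tested genes rose, 7.60% fell and the median was -0.02. A2M, a broad protease inhibitor, went up from 23.4 ± 3.03 TPM to 122 ± 16.9 (2.33 on the log2 scale, adjusted p = 9.09e-05), and SAA4 and TTR rose by 2.03 and 0.95. TTR, like ALB and TF, is a gene of the list that an acute phase response lowers. The counts and medians of this list, with either compound, therefore give no direction for that response. HP, which binds free haemoglobin, went from 14.4, 21.1 and 17.6 to 3.19, 4.30 and 2.91 TPM (-2.06 on the log2 scale, adjusted p = 1.26e-04), and ORM1, ORM2, C4BPA and HPX fell as they did with JQ1 (-1.13, -1.07, -1.06 and -0.78).

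Of 30 factors that bind fibrinogen promoters or carry interleukin 6 and glucocorticoid signals, 28 were tested. With JQ1 9 rose and 4 fell (7 with the GC trend removed), with a median of 0.32 on the log2 scale, where 19.0% of all tested genes rose and 19.4% fell. Of the liver factors FOXA3 rose by 0.98 (adjusted p = 4.93e-04) and HNF4A by 0.91 (adjusted p = 0.00123). STAT3, which carries the interleukin 6 signal to these promoters, went up from 14.4 ± 1.49 TPM to 32.5 ± 0.980 with JQ1 (1.13 on the log2 scale, adjusted p = 2.33e-04). CEBPA and FOXA1 also rose (0.94 and 1.27). CEBPB fell by 0.49 on the log2 scale (adjusted p = 0.00749) and the oncostatin M receptor OSMR by 0.83, the last not without vehicle replicate 3 (adjusted p = 0.0512). IL6 itself and SOCS3, its feedback inhibitor, were under 1 TPM in every library. The receptor chains IL6R and IL6ST differed by 0.36 and 0.49 on the log2 scale (adjusted p = 0.121 and 0.253). With FIDAS-5 3 rose and 5 fell, with a median of 0.04, against 12.6% and 7.60% of all tested genes. STAT3 rose here too, to 27.9 ± 2.73 TPM (0.91, adjusted p = 0.00148), as did CEBPD, an acute phase factor (1.19, adjusted p = 4.88e-04), and the glucocorticoid-induced TSC22D3 (0.83, adjusted p = 0.00472), which fell with JQ1 (-0.65). FKBP5, another glucocorticoid-induced gene, and NR3C1, the receptor, fell with FIDAS-5 (-1.09 and -0.83), as did SOCS1 (-1.01), SP1 (-0.88) and CTCF (-0.76). The number that rose was 5 without JQ1 replicate 3 or under 3 other scalings (median-of-ratios, protein-coding genes only, quantile), and the number that fell was 1 without FIDAS-5 replicate 2 or 3 or without vehicle replicate 3. With the GC trend removed 6 rose and 9 fell.

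Genes that turn fibrinogen into fibrin, crosslink it or dissolve it were examined next, 22 of 29 being tested. With JQ1 6 rose and 10 fell, with a median of -0.36, against 19.0% and 19.4% of all tested genes, and neither count moved by over 1.5 times under any setting tried. SERPINF2, α2-antiplasmin, which protects fibrin from plasmin, went up from 41.4 ± 4.09 TPM to 270.4 ± 12.3 (2.68 on the log2 scale, adjusted p = 4.89e-06), and F10, coagulation factor X, rose from 6.99, 7.10 and 6.89 TPM to 27.6 ± 0.505 TPM (1.84, adjusted p = 1.16e-05). CPB2, which also slows the lysis of fibrin, went from 21.9 ± 3.51 TPM to 1.70 ± 0.587 (-3.10, adjusted p = 2.32e-05). F2, prothrombin, whose active form cleaves fibrinogen, fell from 21.9 ± 3.13 TPM to 7.77 ± 1.06 (-1.38, adjusted p = 1.60e-04). The thrombin inhibitor SERPINC1 and the tissue factor inhibitor TFPI fell (-1.65 and -2.14), and so did F13B, the carrier subunit of the crosslinking factor XIII (-0.82). F13A1, its catalytic subunit, was listed at 0 in every library. With FIDAS-5 13 of the 22 rose (8 with the filter at 5 TPM) and 1 fell, with a median of 0.70, against 12.6% and 7.60% of all tested genes; 2 of the 13 reached 1 TPM only in the FIDAS-5 libraries. SERPIND1, heparin cofactor II, rose from 57.4, 53.9 and 53.4 TPM to 228, 205 and 199.8 TPM (1.92, adjusted p = 1.99e-05), and PLAU, urokinase, by 1.58. F2 and SERPINC1, lower with JQ1, rose with FIDAS-5 (1.03 and 0.87). KNG1, kininogen, fell with both compounds, by 1.47 with JQ1 and by 1.15 with FIDAS-5, the latter not called without vehicle replicate 2 or 3, any FIDAS-5 library or JQ1 replicate 2 (adjusted p = 0.0537 to 0.130).

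**Figure D4:**
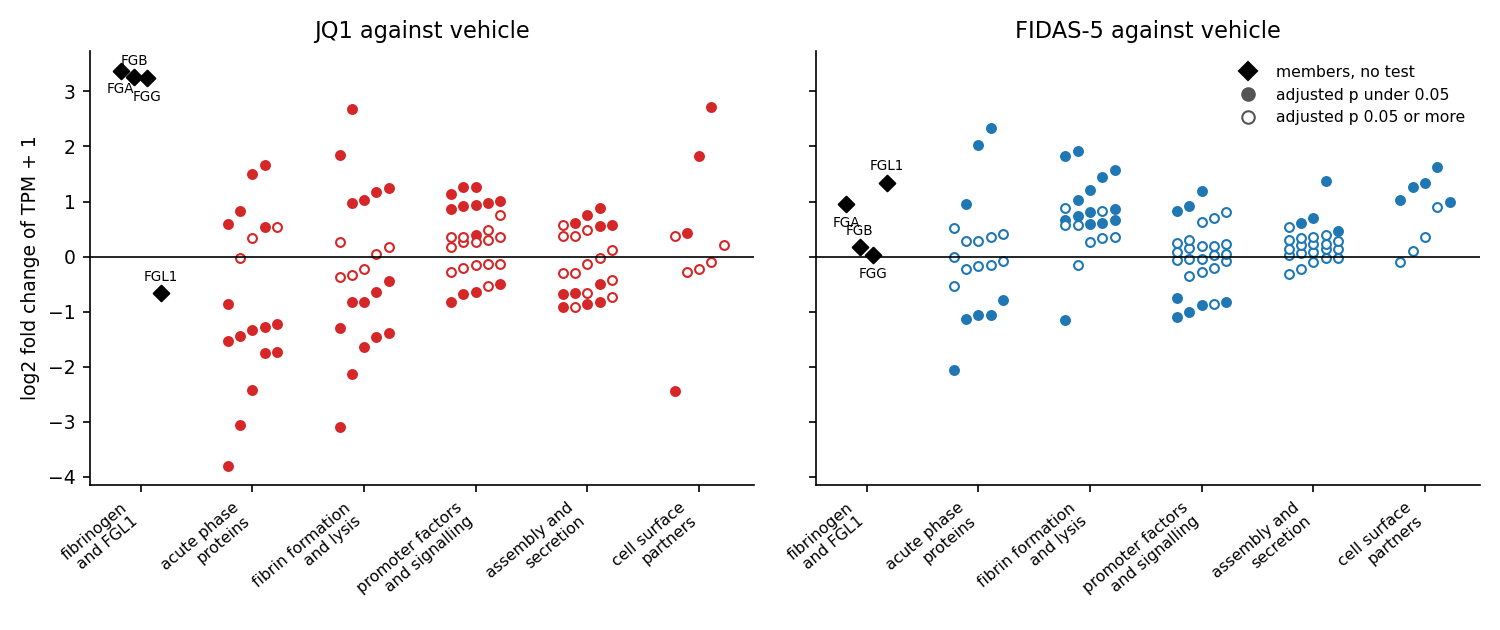
log2 fold change of TPM + 1 against vehicle (vertical axis) for JQ1 (left) and FIDAS-5 (right), with 1 point for each gene; diamonds are the fibrinogen genes and FGL1, shown without a test, filled circles are list genes with an adjusted p under 0.05 and open circles the others. FGA, FGB and FGG lie at 3.25 to 3.38 with JQ1, above every acute phase gene plotted (highest 1.66), and at 0.03 to 0.96 with FIDAS-5.

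The genes on either side of the cluster did not share its levels. Of the 5 nearest protein-coding genes on each side, only PLRG1, a splicing factor gene 12.6 kb away, and DCHS2, 71.2 kb away, were expressed enough to be tested. PLRG1 measured 13.5, 18.3 and 15.7 TPM after vehicle and 20.7, 19.3 and 9.69 TPM after JQ1 (difference of JQ1 from vehicle 0.01 on the log2 scale, SE 0.30, adjusted p = 0.990). DCHS2 stood at 2.07 ± 0.445, 2.46 ± 0.968 and 1.78 ± 0.605 TPM (-0.16, SE 0.24, adjusted p = 0.640). With no filter, or with protein-coding genes only, 1 of the 10 neighbours fell with JQ1. Of all genes tested with the filter used here 19.4% fell with JQ1. LRAT, the nearest gene on the FGG side at 128 kb, and the 7 others did not reach 1 TPM in 3 libraries.

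FGL1 lies elsewhere, on the reverse strand of chromosome 8 (17864389 to 17895538), and is also protein-coding. Of its 10 neighbours 8 were tested. By limma 0 rose with either compound, while 2 fell with JQ1 and 1 with FIDAS-5. Of all tested genes 19.0% rose and 19.4% fell with JQ1, and 12.6% rose and 7.60% fell with FIDAS-5. Under median-of-ratios scaling or with protein-coding genes only 1 neighbour rose with JQ1 and 2 with FIDAS-5, and 1 rose with each without JQ1 replicate 3. With the GC trend removed 3 rose with JQ1 and 3 with FIDAS-5, and 3 rose with FIDAS-5 when replicates 3 of both compounds were left out. PDGFRL, 221 kb away, fell with both (-0.67 with JQ1, adjusted p = 0.00341, and -0.46 with FIDAS-5, adjusted p = 0.0355), the FIDAS-5 call being lost when any vehicle library, JQ1 replicate 2, or either of FIDAS-5 replicates 2 and 3 was left out (adjusted p = 0.0644 to 0.142). SLC7A2 fell with JQ1 (-1.15, adjusted p = 0.0485), which it did not when any vehicle library, either of JQ1 replicates 2 and 3, or FIDAS-5 replicate 2 was left out (adjusted p = 0.0585 to 0.120). MTUS1, the nearest in the table on that side, differed by -0.21 and -0.37 on the log2 scale (adjusted p = 0.555 and 0.357).

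**Figure D5:**
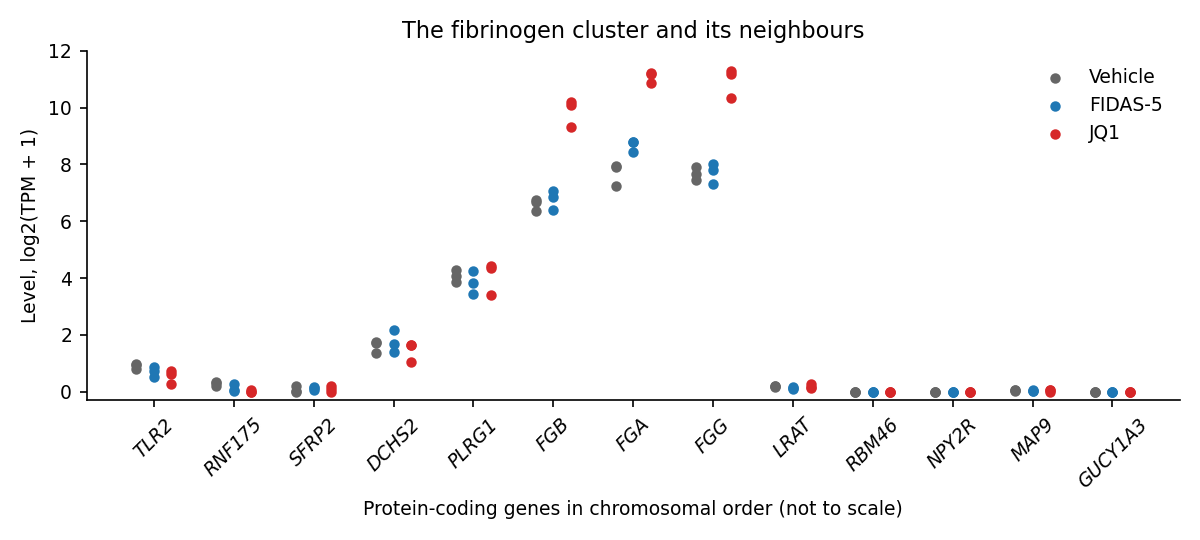
Level of the 3 fibrinogen genes and their 5 nearest protein-coding neighbours on each side, in chromosomal order (horizontal axis, not to scale), as log2(TPM + 1) (vertical axis), with 1 point per library. The JQ1 points stand apart from vehicle at FGB, FGA and FGG and at PLRG1 lie on both sides of the vehicle points, 2 above and 1 below them (adjusted p with JQ1 0.990).

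Of 20 other genes with a fibrinogen-type domain or an angiopoietin-like build, 17 were too low to be tested, among them FGL2 (0.123 ± 0.0231 TPM in vehicle), ANGPT1, ANGPT2 and the ficolins. ANGPTL4 rose with JQ1 (1.08, adjusted p = 0.00474), and ANGPTL2 fell with both compounds (-0.52 and -0.54, adjusted p = 0.0218 and 0.0320). ANGPTL2 missed the threshold with JQ1 when either of vehicle replicates 1 and 3 or of JQ1 replicates 2 and 3 was left out (adjusted p = 0.0593 to 0.0620). With FIDAS-5 it missed it when vehicle replicate 1 or 3, JQ1 replicate 2 or any of the FIDAS-5 libraries was left out.

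Genes whose levels over the 9 libraries were most like the mean of FGA, FGB and FGG were found by the Pearson correlation of log2(TPM + 1), among 8164 genes with at least 5 TPM in their highest group. The closest was HMCES, a DNA damage repair gene (0.994), with 12.9 ± 0.384 TPM after vehicle, 14.1 ± 0.423 after FIDAS-5 and 22.3 ± 1.48 after JQ1. It was followed by GLUD1, glutamate dehydrogenase (0.994), EXT2 (0.992), ADHFE1 (0.991), MYO1E (0.991), PEPD (0.988), HEXIM1, an inhibitor of the elongation factor P-TEFb (0.988), MARC2 (0.987), SDR39U1 (0.987) and TPM1-AS (0.987). Correlation ignores the size of a change: GLUD1 had a log2 fold change of 2.11 with JQ1 and ADHFE1 of 2.85, but HMCES of 0.75. Since JQ1 sets 3 libraries apart from the other 6, such a likeness is common, and 201 of the 8164 genes had a correlation above 0.95. The most opposite genes were GAL, a neuropeptide (-0.988), MPI (-0.987), SERTAD3 (-0.983), CLPP (-0.982) and PKM, pyruvate kinase (-0.982). The genes most like FGL1 were CYP39A1, a sterol hydroxylase (0.990), ANTXR2 (0.989), ABCC2, an export pump of the bile canaliculus (0.986), CASP8 (0.986) and TNFRSF11B (0.985). ABCC2, for example, had 12.8 ± 1.47 TPM after vehicle, 41.5 ± 8.47 after FIDAS-5 and 7.10 ± 2.45 after JQ1.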

How the data were processed

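The authors deposited 1 table of TPM by gene symbol; Salmon and hg38 are named, per the submitters' processing notes, and the version and annotation are not given in the sources used here. Each library sums to 1000000 within 2 TPM. Protein-coding symbols, matched to RefSeq genes of GRCh38.p14, held 27.6 to 34.0% of it, so levels also depend on other RNAs. Values were analysed as log2(TPM + 1), which understates the fold changes of low genes. A group-mean model was fitted with limma 3.58.1 in R 4.3.3 to the 13573 genes that reached 1 TPM in 3 or more libraries, over all 9 libraries (6 residual and 2.86 prior degrees of freedom), with Benjamini-Hochberg adjustment over all of them and calls at an adjusted p under 0.05, two-sided. The fit was also run on simulated data with independent noise for each gene and no GC trend. That run therefore does not cover the departures that genes share within a library here. Figures were drawn with matplotlib 3.10.9. Some list genes and motifs are not reported here by name; the lists' counts and medians include those genes. Members, lists and tests were chosen with earlier results of these data known. The rule for names took the members, up to 4 genes of each list with the smallest adjusted p and any that describe it, 5 neighbours on each side and the genes most alike by correlation. The replicate numbers come from the sample titles. Correlations of departures between same-numbered FIDAS-5 and JQ1 libraries (0.26, 0.102 and 0.422) did not settle whether these are paired, and no pairing of either with vehicle was seen. GC contents are medians over GENCODE 29 transcripts. Alternatives were another pseudocount (0.1), no filter or a stricter one (5 TPM), median-of-ratios scaling, protein-coding genes only, quantile normalization, the 6 libraries compared, a replicate block, a moderation trend and leaving out libraries; removing a lowess trend on GC content was added after the data were seen.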

Additional observations from a re-analysis of the deposited data

How the results depend on the processing

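Of the fold changes of FGA, FGB, FGG and FGL1, all kept their direction and stayed within 1 SD under every setting tried, except FGG with FIDAS-5. Its direction changed when vehicle replicate 1, FIDAS-5 replicate 1 or FIDAS-5 replicate 2 alone was left out. With JQ1, leaving out 1 library gave log2 fold changes of 3.15 to 3.50 for FGA, 3.10 to 3.54 for FGB, 3.07 to 3.55 for FGG and -0.82 to -0.46 for FGL1. With FIDAS-5 it gave 0.73 to 1.08 for FGA, 0.02 to 0.36 for FGB, -0.12 to 0.23 for FGG and 1.11 to 1.58 for FGL1. Removing the GC trend gave FIDAS-5 values of 1.14 (SE 0.19) for FGA and 0.38 (SE 0.11) for FGB. For FGG and FGL1 it gave 0.27 (SE 0.12) and 1.57 (SE 0.11). Restricted to protein-coding genes, the JQ1 values were 3.36, 3.25, 3.23 and -0.82. Over all genes, leaving out 1 library gave 1655 to 2970 genes higher with JQ1 (2582 with all), and 1461 to 3304 called with FIDAS-5 (2742 with all), 944 to 1857 of them higher and 517 to 1455 lower. With the GC trend removed 4416 genes were called with FIDAS-5, 2019 of them lower, and with quantile normalization 1756 were lower and 1904 higher, against 1031 and 1711; the cause was not tested. Correlations of departures between same-numbered libraries ran from -0.076 to 0.16 between vehicle and either compound. Differently numbered libraries of vehicle and a compound had -0.141 to 0.096. No pairing with vehicle was seen, but 3 libraries per group cannot exclude it. Between FIDAS-5 and JQ1 the correlations of same-numbered libraries were 0.26, 0.102 and 0.422. FIDAS-5 replicate 1 and JQ1 replicate 2, with different numbers, had 0.179, and the other differently numbered libraries of these compounds had -0.35 to 0.03. Whether the numbers pair FIDAS-5 with JQ1 samples is thus not settled, and the part of the GC trend in these correlations was not tested. With the replicate block the differences of JQ1 from FIDAS-5 were the same (2.42, 3.09, 3.22 and -2.01), with SEs of 0.22 to 0.23. A replicate block left the members' fold changes as they were (FGG with JQ1 3.25, SE 0.22) and called 5544 genes with JQ1, against 5219, and 5 rising promoter factors with FIDAS-5, against 3. Of 106 calls of list genes, 26 were lost under at least 1 setting and 0 reversed. TPM keeps no depth, so the precision of FGL1 and other genes at a few TPM cannot be stated.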

Other observations

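The steps that fold, modify and export the assembled chains, and the receptors that bind the secreted proteins, were measured in the same libraries. Of 24 tested genes of folding and secretion, 5 rose and 6 fell with JQ1 (median -0.21), where 19.0% of all tested genes rose and 19.4% fell, shares near those of the list. P4HB, a protein disulfide isomerase, rose by 0.57 with JQ1 and by 0.70 with FIDAS-5 (adjusted p = 0.00803 and 0.00584), TPST1, which sulfates tyrosines of secreted proteins, by 0.56 and 0.61, and TPST2 by 0.76 with JQ1. The isomerase PDIA4, the chaperone cofactor SDF2L1 and the lectin chaperone CALR fell with JQ1 (-0.68, -0.86 and -0.50). HSPA5, the main chaperone of the compartment, had 67.0 ± 7.69 TPM after vehicle and 50.3 ± 10.3 after JQ1 (adjusted p = 0.111), and the cargo receptor LMAN1 differed by -0.67 (SE 0.39, adjusted p = 0.211). Without JQ1 replicate 3, 8 rose and 3 fell, and 3 fell without vehicle replicate 2 or 3. With FIDAS-5 4 rose and 0 fell by limma, against 12.6% and 7.60% of all tested genes, among them SYVN1, a ligase of protein degradation (1.37, adjusted p = 0.0118); 2 rose without FIDAS-5 replicate 3 or vehicle replicate 3, and 11 with the GC trend removed.

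Of 17 surface and matrix partners of fibrinogen and FGL1, 9 were tested. LAG3, the receptor of FGL1, was under 1 TPM in every library. The integrin chain ITGB3 measured 0.162, 0.335 and 0.194 TPM after vehicle, against 3.29, 3.57 and 3.25 TPM after JQ1; it passed the filter on low values through the JQ1 libraries alone, so no test is given, while ITGA2B, its partner on platelets, was not tested. FN1, fibronectin, which is crosslinked to fibrin, rose from 163 ± 56.2 to 1041 ± 163 TPM with JQ1 (2.71, adjusted p = 1.39e-04) and to 498 ± 130.1 TPM with FIDAS-5 (1.63, adjusted p = 0.00381). ICAM1, which binds fibrinogen on cells, fell with JQ1 (-2.44, adjusted p = 2.96e-05) and rose with FIDAS-5 (1.34, adjusted p = 0.00125). In all 3 rose and 1 fell with JQ1, and 5 rose with FIDAS-5, where 19.0%, 19.4% and 12.6% of all tested genes did so. ITGB3 and GP1BA, which passed the filter through treated libraries alone, are among the 3, and 1 rose with JQ1 when JQ1 replicate 1 or 2 was left out.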
